A study of Mus musculus with 74 samples.

Results

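Nanog was followed through all 35 RNA-seq libraries of a mouse embryonic stem (ES) cell series, which fell into 12 conditions. It was taken by its symbol and identifier (ENSMUSG00000012396) and is 1 of the 37620 genes in the deposited tables, so each statement below concerns 1 gene and its level per library. All cells descend from the ES cell line E14Tg2a and were grown on gelatine in medium with 10% fetal calf serum. The parental line (labelled Tg2a FCS, 3 libraries) was grown with leukaemia inhibitory factor (LIF, 10 ng/mL). The 44iN line carries no functional Nanog allele and expresses Nanog from a transgene that doxycycline (Dox, 1 µg/mL) switches on. It was sampled with LIF in Dox, after at least 3 passages with the drug (2 libraries), 24 h after the drug was removed (2 libraries), and after long-term culture without it (2 libraries). By the study's methods, the long-term culture without Nanog was kept under selection with the antibiotic G418. In comparisons with these long-term libraries, the part of this selection cannot be told apart. The SunTag cells have intact Nanog alleles and carry 1 vector with a Dox-inducible catalytically dead Cas9 joined to an array of GCN4 peptides, and an antibody fragment fused to the VP64 activation domain that binds the array. Nanog SunTag cells (11 libraries) also carry a guide RNA against the Nanog promoter. Nanog/Otx2 SunTag cells (15 libraries) carry that guide and a further guide against Otx2. Both kinds were collected at day 3 with or without LIF and with or without Dox, which gives 4 states for each.

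The models have limits that bear on every level below. The SunTag libraries come from 2 parental clones, C1 and C2, with 1 Nanog-guide clone from each and 1 derived clone (C1ON3 and C2ON3) with the additional Otx2 guide. The study picked these clones among candidates for strong induction of the targeted genes, so the folds with Dox describe selected clones. Libraries of 1 clone share a cell line, and the labels do not say which libraries came from separate cultures, so the p-values measure the spread between these libraries. 44iN is a single line. The Nanog/Otx2 libraries and the Nanog SunTag libraries carry different prefixes in their library names, and what goes with the prefix and what goes with the guides cannot be told apart.

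NANOG is a homeodomain transcription factor of the naive pluripotent epiblast and of germ cells. Together with OCT4 and SOX2 it binds the enhancers of the genes that keep ES cells self-renewing, its own locus included. LIF acts through STAT3 to maintain a group of pluripotency factors, among them KLF4 and TFCP2L1. ES cells start to differentiate when LIF is withdrawn, but cells forced to express Nanog can self-renew without it. OTX2, a homeodomain factor of the formative epiblast, rises at this exit.

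In the annotation of the build used by the authors (mm9), Nanog lies on the forward strand at chr6:122657507-122664651. Its 4 annotated transcripts start 0, 76, 79 and 104 bases after the first of these positions, and no other annotated gene overlaps it. The Nanog guide matches the genome without a mismatch at 1 place, chr6:122657269-122657288 on the forward strand, positions -238 to -219 relative to the first annotated start and upstream of every annotated exon of the gene. The search covered both strands, but only sites followed by NGG (N being any base), the sequence that Cas9 requires beside its target. Among these, no site with 1 or 2 mismatches was found, and 4 sites had 3 mismatches, the nearest of them 5994 bases from the start of a gene (Tsku). The promoter of Nanog is known for a composite element bound by OCT4 and SOX2. It was searched on both strands as the octamer motif TTTGCAT and the SOX motif ACAATG with 1 base of any kind between them, with no other motif searched, and was found at positions -75 to -62. It occurred in 2 of the 32851 RefSeq promoter windows (GRCm38.p6, 0.00609%), both assigned to Nanog. Only exact matches to both motifs were counted, so this share does not say how common variant forms of the element are in promoters. The sequences below show where the activator is brought relative to this element. Capitals mark the guide match with its adjacent GGG (the PAM that Cas9 requires) and, further on, the composite element in the promoter, the GGG alone in the guide line, and the whole motif in the last line.
Nanog promoter, chr6:122657257-122657506, mm9, forward strand: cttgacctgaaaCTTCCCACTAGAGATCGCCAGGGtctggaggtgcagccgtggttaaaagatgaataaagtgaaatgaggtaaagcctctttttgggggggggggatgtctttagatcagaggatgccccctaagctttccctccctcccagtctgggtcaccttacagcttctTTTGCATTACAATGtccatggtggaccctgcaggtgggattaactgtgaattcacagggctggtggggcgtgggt
Nanog guide target with PAM: cttcccactagagatcgccaGGG
OCT4-SOX2 element as found: TTTGCATTACAATG

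A gene-level table cannot say where a Nanog read started. Of the 2147 distinct 65-base words in the Nanog transcript, 65 bases being the read length, 228 (10.6%) occur exactly elsewhere in mm9, and 144 of these lie outside a repeat within the transcript. Beyond that repeat, 3 other stretches of the genome resemble the transcript, the longest being 1325 bases on chromosome X at 97.4% identity. None of the 3 carries an annotated gene, and only 1 row of the table is named Nanog. Transcripts from the null allele, leak of the uninduced transgene and reads from such copies therefore cannot be told apart in the 44iN cells.

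Total counts ranged from 6107512 to 92244655 per library, with a median of 29298745, and Nanog had between 250 and 130998 counts. Levels below are normalised counts, the counts divided by a size factor per library. The label ES cell was checked against markers of pluripotent cells. Each of the 8 genes on this list was detected in every group of libraries. Their summed levels were 90362 to 130577 normalised counts in SunTag libraries with LIF and 52734 to 96915 without LIF. They were 63721 to 86818 in 44iN and 69420 to 83940 in Tg2a. These sums hide opposite courses. From SunTag libraries with LIF to those without LIF and Dox, the median fell from 18599 to 644 for Esrrb and from 18608 to 1310 for Zfp42. Sox2, Dppa4 and Pou5f1 were also lower, while Lin28a (6908 to 15254), Utf1 and Sall4 were higher. The lines differed as well. The Pou5f1 median was 40300 in SunTag libraries with LIF, 9732 in 44iN and 9134 in Tg2a, and that of Utf1 was 5300, 390 and 328. Esrrb was also higher in SunTag libraries with LIF than in both other lines, while Sox2, Dppa4, Sall4 and Lin28a were lower. The part of such line differences in the Nanog levels was not tested. The 4 formative epiblast markers summed to 2913 to 12092 with LIF, to 71205 to 100878 without LIF and Dox, and to 32965 to 61925 without LIF with Dox. Without LIF and Dox the median was 88542 for this sum and 78562 for Dnmt3b alone. Fibroblast markers, which would mark feeder cells, summed to at most 239.5 in any library. In bulk RNA a lower Nanog level can mean fewer Nanog-expressing cells or less Nanog RNA per cell, and these cannot be told apart here.

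Nanog spanned 335.5-fold between the highest and the lowest condition mean. The highest level was that of Nanog SunTag cells with LIF and Dox, 84519 ± 13143 normalised counts (mean ± SD, n = 2), or 429% of the Tg2a mean. Below it stood Nanog SunTag cells without LIF with Dox (51805 ± 5875, n = 3) and then Nanog/Otx2 SunTag cells with Dox, at 44065 ± 3835 with LIF (n = 4) and 39529.6 ± 7478 without LIF (n = 4). All 4 conditions with an induced activator thus lay above the 3 conditions with intact alleles, LIF and no induced activator. Those 3 were close together, with 24924 ± 4013 in Nanog SunTag cells without Dox (n = 3), 19714 ± 474 in Tg2a (n = 3) and 19480.0 ± 1110.2 in Nanog/Otx2 SunTag cells without Dox (n = 3). 44iN cells in Dox followed at 15880.4 ± 3555 (n = 2). SunTag cells without LIF and without Dox held 5916 ± 3271 (Nanog SunTag, n = 3) and 4425 ± 2528 (Nanog/Otx2, n = 4). At the bottom were 44iN cells 24 h after Dox removal (722.5 ± 24.0, n = 2) and after long-term culture without Dox (251.9 ± 33.6, n = 2).

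**Figure D1:**
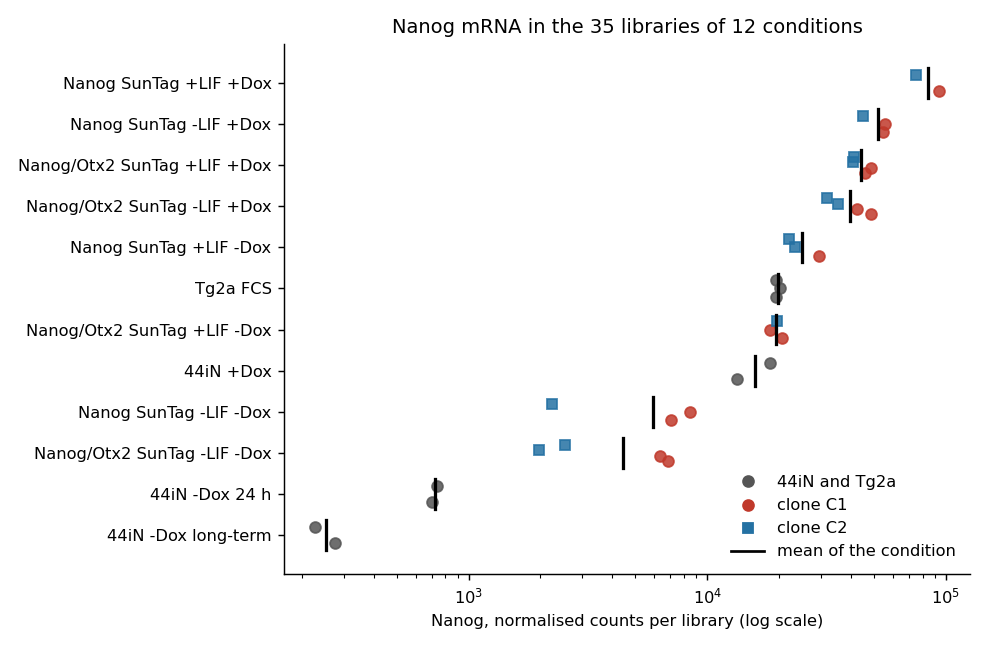
Nanog level in each of the 35 libraries (normalised counts, log axis), by condition in the order of the condition means, with a bar at each mean. The 4 conditions with the SunTag activator induced lie at 31697 to 93813, above all Tg2a libraries (19420.2 to 20261), and the 44iN libraries without Dox lie at 228 to 739.5.

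Neighbours in this order were compared in 1 edgeR fit over all 35 libraries. Of the 11 neighbouring steps, 3 passed an adjusted p of 0.05: 44iN in Dox against Nanog SunTag without LIF and Dox (adjusted p = 0.002509), Nanog/Otx2 SunTag without LIF and Dox against 44iN 24 h after Dox removal (adjusted p = 3.44e-06), and 44iN at 24 h against long-term without Dox (adjusted p = 0.03316). The shares of all genes called in these 3 steps were 59.5%, 73.0% and 20.0%. In the other 8 steps, from the highest level down, 40.7%, 49.3%, 24.0%, 46.3%, 47.8%, 56.0%, 57.7% and 20.3% of all genes were called. Nanog did not pass in these 8, so neighbouring ranks within the upper 8 conditions, and the order of the SunTag pair without LIF and Dox, are a description only. Per kilobase of exon, Nanog ranked 46 of 20797 detected genes in the highest condition, 150 of 24115 in Tg2a, 4935 of 19334 in 44iN at 24 h without Dox and 7618 of 22286 in long-term 44iN. The order by CPM was the same. As a ratio to Tbp, the gene for the TATA-binding protein and the study's qPCR reference, Nanog/Otx2 cells moved ahead of Nanog SunTag cells in 3 of the 4 states.

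The 44iN cells gave the level that remains without an intact Nanog allele. The 2 long-term libraries held 276 and 228 normalised counts, from 575 and 335 counts (95% Poisson intervals of 253.6 to 299 and 204 to 254 normalised counts, which cover counting error only). Their mean was 1.28% of Tg2a, whose 3 libraries held 19460.3, 20261 and 19420.2. The libraries of the 2 groups did not overlap, and Nanog had the lowest p of all 14937 genes tested, with a log2 fold change of -6.37 ± 0.21 (SE) and an adjusted p of 1.023e-05. Over all genes tested, 48.3% did not overlap between these groups and 8.61% were called. The primitive endoderm markers summed to 8520 to 13018 in long-term 44iN and to 6074 to 8559 in Tg2a, against 202 to 1289 in the other 44iN libraries. Their part in these values was not tested.

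After 24 h without Dox the libraries held 705.5 and 739.5 normalised counts (294 and 250 counts, intervals of 627 to 791 and 651 to 837). Both lay above both long-term libraries, and the mean was 2.87 times theirs and 3.67% of Tg2a. In the fit over the 9 libraries of 44iN and Tg2a the log2 difference was 1.46 ± 0.20 (adjusted p = 0.007338), where 8.74% of all genes were called and 68.4% did not overlap. The call was lost without any 1 of the 4 libraries: without the first or second library at 24 h it had an adjusted p of 0.05286 or 0.06511, and without the first or second long-term library 0.06216 or 0.08358, with log2 differences between 1.34 and 1.61.

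With Dox, the 44iN libraries held 13366 and 18394 normalised counts, 22.0 times the mean at 24 h without it. The gap between these libraries was wider than the whole range of Tg2a. The log2 fold change of Dox was 4.56 ± 0.30, the lowest p of 14376 genes, but the adjusted p of 0.09021 missed the threshold in this fit of 2 against 2 libraries. edgeR called 0% of the genes there, while 1023 had an unadjusted p under 0.05 and 37.5% did not overlap between the groups. DESeq2 called 141 genes, Nanog among them (log2 fold change 4.54, adjusted p = 5.095e-40). The edgeR call turned with the fit: Nanog was called with the replicate number as a block (4.53, adjusted p = 5.62e-69) and without any 1 of the 4 libraries (4.26 to 4.77, adjusted p at most 1.403e-05). These fits leave 1 residual degree of freedom, and those without a library take the spread of a lone library from the other group, so they lend the call no support. Against Tg2a the induced transgene gave 80.6% of the level. The libraries did not overlap (nor did those of 34.8% of all genes), but the log2 difference of -0.37 ± 0.18 was not called (adjusted p = 0.2692, 4.72% of genes called).

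In Nanog SunTag cells with LIF, the libraries without Dox held 29487 (C1), 23345 and 21940.5 (C2) normalised counts, and those with Dox 93813 (C1) and 75226 (C2). Every library with Dox lay above every library without it, and the ratio of means was 3.39. The edgeR fit of these 5 libraries gave a log2 fold change of 1.76 ± 0.24, ranked 5 by p among 14934 genes, with an adjusted p of 0.2558. It called 0% of the genes, with 1137 at an unadjusted p under 0.05 and 26.4% not overlapping. DESeq2, the tool of the study, called 163 genes, and Nanog was one of them (log2 fold change 1.74, adjusted p = 1.227e-06). The exact two-sided permutation test on the levels gave p = 0.1, the smallest these 5 libraries allow.

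Without LIF, the Nanog SunTag libraries held 7032 and 8484 (C1) and 2234 (C2) without Dox, and 54732 and 55641 (C1) and 45041 (C2) with Dox. Withdrawal of LIF left 23.7% of the level without Dox, and Dox then raised it 8.76-fold. In the fit of all 11 libraries the LIF effect without Dox was -2.10 ± 0.37 on the log2 scale (adjusted p = 0.001053, 41.5% of genes called and 51.7% not overlapping), and the Dox effect without LIF was 3.16 ± 0.39 (adjusted p = 0.0008988, 5.14% called and 34.1% not overlapping). Neither pair of groups overlapped. The clones were unevenly spread, with 1 C1 and 2 C2 libraries with LIF and no Dox, and 2 C1 and 1 C2 without both. Blocking on clone gave a LIF effect without Dox of -2.43 (adjusted p = 7.463e-05). It gave a Dox effect without LIF of 3.29 (adjusted p = 9.058e-05).

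In Nanog/Otx2 SunTag cells the directions were the same. Their libraries with LIF held 20533, 18320.4 (C1ON3) and 19586 (C2ON3) without Dox, and 45942, 48558 (C1ON3), 40628 and 41133 (C2ON3) with Dox, a ratio of 2.26. The groups were fully separated, and the log2 fold change of 1.19 ± 0.34 was called (adjusted p = 0.01959, 22.9% called and 31.9% not overlapping). The call was lost without either C1ON3 library with LIF and without Dox (1.24, adjusted p = 0.05729, and 1.16, adjusted p = 0.07681). Without LIF the libraries held 6867, 6327 (C1ON3), 1974 and 2533 (C2ON3) without Dox and 48470.5, 42572 (C1ON3), 35379 and 31697 (C2ON3) with Dox. LIF withdrawal left 22.7% without Dox (-2.17 ± 0.33, adjusted p = 7.049e-05, 49.8% called and 48.6% not overlapping), and Dox without LIF raised Nanog 8.93-fold (3.19 ± 0.33, adjusted p = 1.701e-05, 17.3% called and 23.0% not overlapping). The exact permutation p was 0.02857 for each of these 3 comparisons, the smallest that the libraries allow. Blocking on clone gave Dox effects of 1.28 with LIF (adjusted p = 0.001301) and 3.30 without (adjusted p = 2.309e-07).

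The question of how far Nanog depends on LIF once the activator is on is answered by the same comparison in the cells with Dox. Nanog SunTag cells kept 61.3% of their Dox level without LIF, with no overlap between the groups (63.4% of all genes did not overlap either). The log2 difference of -0.68 ± 0.39 was not called (adjusted p = 0.2003, 32.6% of genes called). Blocking on clone gave -0.79, which was called (adjusted p = 0.04967), and it was also called without the C2 library lacking LIF and Dox (-0.67, adjusted p = 0.02179). Nanog/Otx2 SunTag cells kept 89.7%, with overlapping groups, and the difference of -0.17 ± 0.30 was not called (adjusted p = 0.6966, 36.5% called and 37.4% not overlapping). Its exact permutation p was 0.3429.

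The effect of Dox on the log2 scale was larger without LIF than with it in both kinds of cell. The difference of the effects (the interaction) was 2.00 ± 0.44 in Nanog/Otx2 SunTag cells (adjusted p = 0.01043, 9.70% of genes called), and 2.02 after blocking on clone (adjusted p = 0.000683). In Nanog SunTag cells it was 1.42 ± 0.54 and was not called (adjusted p = 0.2368, 1.93% called), while blocking on clone gave 1.64, which was called (adjusted p = 0.04486). On the linear scale the gain ran the other way in Nanog SunTag cells: Dox added 64326 (C1) and 52583 (C2) normalised counts with LIF, and 47429 and 42808 without. In Nanog/Otx2 SunTag cells Dox added 27823 (C1ON3) and 21294 (C2ON3) with LIF, and 38924 and 31285 without. Each clone mean behind these gains rests on 1 or 2 libraries.

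**Figure D2:**
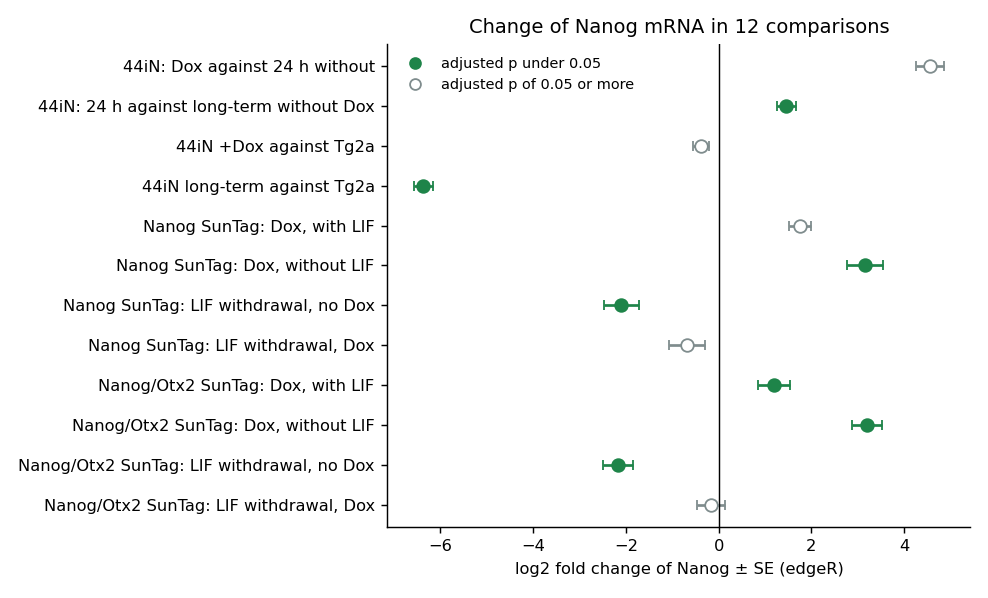
Log2 fold change of Nanog in each comparison (edgeR, horizontal axis), with bars of 1 standard error and filled symbols where the adjusted p is under 0.05. The effect of Dox without LIF is 3.16 and 3.19 in the 2 kinds of SunTag cell, against 1.76 and 1.19 with LIF, and the effect of LIF withdrawal shrinks from -2.10 and -2.17 without Dox to -0.68 and -0.17 with it.

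Addition of the Otx2 guide went with lower mean Nanog in all 4 states, but no state passed the test. With LIF and Dox the Nanog/Otx2 cells held 52.1% of the level of Nanog SunTag cells, with no overlap (-0.94 ± 0.38, adjusted p = 0.07053, 28.5% of genes called and 49.6% not overlapping). This comparison turned with the method: it was called with the parental clone as a block (-0.93, adjusted p = 0.01316), by DESeq2 (-0.97, adjusted p = 0.04639), without the C2 library of Nanog SunTag cells lacking LIF and Dox (-0.94, adjusted p = 0.0281) and without the first C2ON3 library in that state (-0.94, adjusted p = 0.04289). Without LIF with Dox they held 76.3% (-0.46 ± 0.35, adjusted p = 0.3013, 41.0% called and 49.8% not overlapping, the Nanog libraries overlapping). Without LIF and Dox they held 74.8%, again with overlap (-0.45 ± 0.35, adjusted p = 0.3637, 25.4% called and 38.5% not overlapping). With LIF and no Dox they held 78.2%, without overlap (-0.37 ± 0.37, adjusted p = 0.564, 12.7% called and 24.3% not overlapping). Whether the Dox effect itself differed between the guides was tested: the difference was -0.57 ± 0.54 with LIF (adjusted p = 0.7572, 0.0370% of genes called) and -0.01 ± 0.49 without (adjusted p = 1, 0.0308% called). With the parental clone as a block these were -0.39 and -0.01 (adjusted p = 0.7154 and 0.9965).

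Part of that pattern depends on the scale. Tbp itself was lower in Nanog/Otx2 than in Nanog SunTag cells in all 4 states, by 0.77, 0.31, 0.50 and 0.39 on the log2 scale without LIF with Dox, with LIF and Dox, without both, and with LIF alone (adjusted p = 2.97e-06, 0.03682, 0.0005851 and 0.01585). As a ratio to Tbp, the Nanog difference without LIF with Dox therefore changed sign, to 0.32, as did those without LIF and Dox (0.063) and with LIF alone (0.034). Dox also lowered Tbp in Nanog/Otx2 cells (-0.39 with LIF, adjusted p = 0.002542, and -0.25 without, adjusted p = 0.02722).

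Of the 4 states, the clones differed most without LIF and Dox. Without LIF and Dox, C1 held 7032 and 8484 and C2 held 2234 in Nanog SunTag cells, a ratio of means of 3.47, and in Nanog/Otx2 cells C1ON3 held 6867 and 6327 against 1974 and 2533 in C2ON3, a ratio of 2.93. In the other 3 states the ratio of C1 over C2 was 0.992 to 1.36. A fit over the 26 SunTag libraries with a clone effect in each state, added after the data were seen, gave a C2 against C1 difference of -1.63 ± 0.10 without LIF and Dox (adjusted p = 1.613e-08, 15.8% of genes called), the second lowest p of 16210 genes. It gave -0.37 ± 0.10 without LIF with Dox (adjusted p = 0.01633, 13.3% called), -0.22 ± 0.11 with LIF alone (adjusted p = 0.1347, 30.3% called) and -0.22 ± 0.10 with LIF and Dox (adjusted p = 0.186, 12.7% called). The call without LIF with Dox was lost without the C2 library of Nanog SunTag cells (adjusted p = 0.05576), without the first C1ON3 library (0.0884) or without the second C2ON3 library (0.09009) of that state, and the difference with LIF alone was called without its only C2ON3 library (-0.39, adjusted p = 0.03235). Within each kind of cell, every C1-derived library without LIF with Dox lay above every C2-derived one. How many of all genes were separated by clone in this way was not counted. Permuting the clone labels within each kind of cell gave an exact p of 0.05556 in both states without LIF and of 0.1667 with LIF and Dox, in each case the smallest the libraries allow, and of 0.3333 with LIF alone, where 0.1111 was possible.

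The clone difference itself changed with LIF and with Dox. Without Dox it was larger without LIF than with LIF by 1.42 ± 0.15 in the direction of lower C2 (log2 difference -1.42, adjusted p = 4.077e-05, 14.9% of genes called), and without LIF it shrank under Dox by a log2 difference of 1.27 ± 0.14 (adjusted p = 0.0003909), the lowest p of all genes, of which 0.0185% were called. With Dox, it did not differ detectably with LIF (-0.15 ± 0.14, adjusted p = 0.8215, 0.0123% called). Per clone, LIF withdrawal without Dox left 26.3% (C1) and 9.87% (C2) in Nanog SunTag cells and 34.0% and 11.5% in Nanog/Otx2 cells. Dox without LIF then multiplied Nanog by 7.11 and 20.2, and by 6.90 and 14.9. With LIF its folds were 3.18 and 3.32, and 2.43 and 2.09. Each clone mean behind these values rests on 1 or 2 libraries, and the 20.2-fold rise in C2 on 1 library with Dox and 1 without. Marker sums without LIF and Dox were 71205 to 98726 normalised counts in C1 and C1ON3 against 84585 to 100878 in C2 and C2ON3 for formative epiblast, 52734 to 77538 against 65191 to 91718 for pluripotent cells, and 1034 to 1847 against 1750 to 2031 for primitive endoderm. Their part in the clone difference was not tested.

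**Figure D3:**
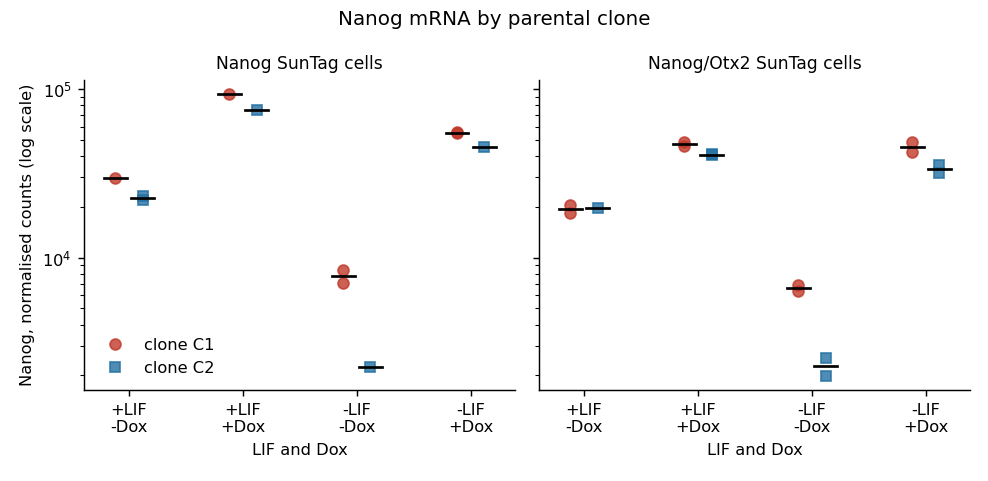
Nanog level (normalised counts, log axis) in each SunTag library by state, with C1-derived and C2-derived libraries drawn apart for both kinds of cell. C2-derived libraries lie at 1974 to 2533 without LIF and Dox and C1-derived ones at 6327 to 8484, while in the other states the clones lie within a ratio of 1.36.

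Nanog sits near other genes active in early embryos and germ cells, such as Dppa3 and Gdf3, and the guide lies within this stretch. Of 21 other annotated genes within 250 kb, 11 passed the filter on low counts in the SunTag fits and 10 in those of 44iN and Tg2a. With Dox and LIF in Nanog SunTag cells edgeR and DESeq2 both called 0 of the 11, and 0 had an unadjusted p under 0.05 in edgeR. Over all 14934 genes DESeq2 called 163, and 1137 had such a p in edgeR. The median log2 fold change of the 11 was -0.01, against -0.004 over all genes. Without LIF, with 5.14% called over all genes, edgeR called 1 of 11 for Dox, Mfap5 (1.19 ± 0.31, adjusted p = 0.04927), at -201.6 kb from the Nanog start, which encodes a microfibril protein. DESeq2 called 1509 of all 15624 genes there and 2 of the 11, Mfap5 and Gdf3, as higher. In Nanog/Otx2 cells edgeR called 1 of 11 without LIF, against 17.3% over all genes. It was Necap1 (0.47 ± 0.10, adjusted p = 0.003764), an endocytosis gene at 167.0 kb. DESeq2 called 3330 of all 15609 genes there and 2 of the 11, Foxj2 and Necap1, as higher. With LIF 2 of 11 were called, against 22.9% over all genes. Both were lower: Apobec1, an RNA-editing cytidine deaminase at -105.0 kb (-0.75 ± 0.15, adjusted p = 0.002651), and Gdf3, a TGF-beta family ligand (-0.75 ± 0.20, adjusted p = 0.0167). The pseudogenes nearest to the guide, Gm10224 and Gm10420, at -8.4 and -11.5 kb, were not called for Dox in any of these comparisons.

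For LIF withdrawal without Dox, where 41.5% of all genes were called in Nanog SunTag cells and 49.8% in Nanog/Otx2 cells, the counts of neighbours called were 8 and 6 of 11. In Nanog SunTag cells 7 of the 8 were lower, with a median of -0.77 against -0.05 for all genes. The lowest were Gm10224 (-2.44 ± 0.62, adjusted p = 0.008698), Mfap5 (-2.04 ± 0.32, adjusted p = 0.0004653) and Apobec1 (-2.02 ± 0.26, adjusted p = 0.0001315), and Foxj2, a forkhead factor gene, was higher (1.14 ± 0.30, adjusted p = 0.009945). Of the 6 in Nanog/Otx2 cells, 5 were lower, among them Dppa3 (-2.18 ± 0.64, adjusted p = 0.01021), a maternal and germ cell factor gene, and Gdf3 (-0.74 ± 0.20, adjusted p = 0.006829). Between clones without LIF and Dox 3 of 11 were called, with 15.8% over all genes. C2 had higher Mfap5 (1.15 ± 0.21, adjusted p = 0.0009903) and Apobec1 (0.56 ± 0.14, adjusted p = 0.009326) and lower Foxj2 (-0.85 ± 0.16, adjusted p = 0.0008305). Dppa3 was lower in C2 in the 2 states with LIF (-2.44 and -2.41, adjusted p = 0.0004485 and 0.0001175) and without LIF with Dox (-1.36, adjusted p = 0.01391).

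**Figure D4:**
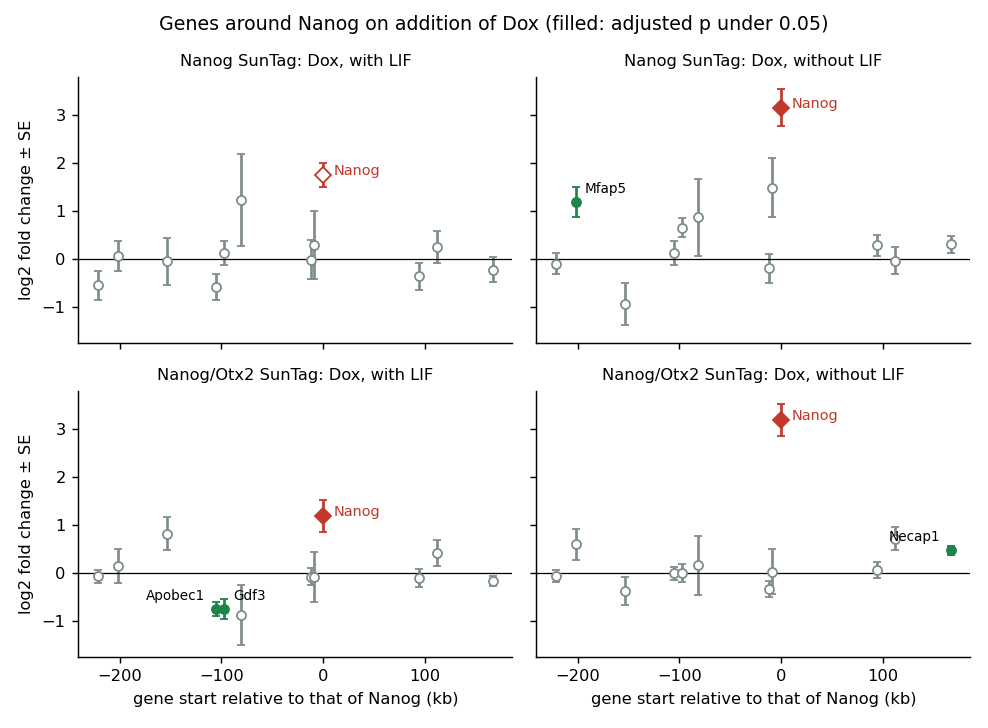
Log2 fold change with Dox of the genes near Nanog (vertical axis, bars of 1 standard error) against their distance from the Nanog start in kb. Nanog at 0 kb stands at 3.16 and 3.19 without LIF, and the called neighbours lie between -0.75 and 1.19.

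The genes known to regulate Nanog were described as a list of 22, all tested in every fit. For Dox with LIF in Nanog SunTag cells edgeR called 0 of them. An unadjusted p under 0.05 was found for 4 of them and for 1137 of all 14934 genes. DESeq2 called 163 of all 14934 genes and 1 of the 22, Otx2, as lower (edgeR log2 fold change -1.74, adjusted p = 0.2558). For Dox in 44iN cells edgeR called 0 of them. An unadjusted p under 0.05 was found for 8 of them and for 1023 of all 14376 genes. DESeq2 called 141 of all 14376 genes and 3 of the 22, Otx2 as lower (edgeR -2.92, adjusted p = 0.1563) and Tcf7l1 and Prdm14 as higher (edgeR 1.75 and 1.64, adjusted p = 0.2561 for both). These were named after their values were seen. LIF withdrawal without Dox changed 16 of 22 in Nanog SunTag cells, 12 lower and 4 higher (median -0.64 against -0.05 over all genes, of which 41.5% were called). The largest falls were those of Klf4 (-5.55 ± 0.22, adjusted p = 1.387e-07), Tbx3 (-5.31 ± 0.39, adjusted p = 3.457e-06), Tfcp2l1 (-4.85 ± 0.24, adjusted p = 3.991e-07), which act downstream of LIF, and of Esrrb, an orphan nuclear receptor gene (-4.79 ± 0.21, adjusted p = 1.903e-07). Otx2 rose by 2.42 ± 0.23 (adjusted p = 1.41e-05), as did Nr6a1, Tcf7l1, a repressor of the pluripotency network, and Smad3 by 1.62, 1.54 and 0.71. In Nanog/Otx2 cells 18 of 22 were called, 13 lower and 5 higher, with 49.8% over all genes.

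Dox without LIF raised 9 of the 22 regulators in Nanog SunTag cells, against 3.60% of all genes called higher. They included Prdm14, a germ cell and pluripotency factor gene (3.28 ± 0.37, adjusted p = 0.0005547), Esrrb (3.23 ± 0.20, adjusted p = 3.026e-05), Klf5 (2.71 ± 0.20, adjusted p = 5.152e-05) and Tbx3 (2.65 ± 0.35, adjusted p = 0.001415), beside 3.16 for Nanog itself. In Nanog/Otx2 cells 12 of 22 were called, 11 of them higher, with 17.3% over all genes. Tbx3, Prdm14, Esrrb and Klf5 again led (3.09, 3.04, 3.03 and 2.79), Nr6a1 fell by 0.49, and Otx2, which the second guide targets, rose by 0.85. With LIF in Nanog/Otx2 cells 5 of 22 were called, a share close to the 22.9% over all genes, with Klf2 lower (-1.27 ± 0.19, adjusted p = 0.0004393) and 4 higher, led by Otx2 (1.88) and Tbx3 (0.99). The interaction was called for 8 regulators in Nanog SunTag cells, with 1.93% over all genes, led by Esrrb (3.11 ± 0.28, adjusted p = 0.001244) and Prdm14 (3.05 ± 0.52, adjusted p = 0.01579). In long-term 44iN cells 7 of 22 differed from Tg2a, with 8.61% over all genes: Prdm14 (-2.38), Klf4 (-2.31), Esrrb (-1.62) and Smad3 (-1.20) led the 6 that were lower, and Otx2 was higher (1.07 ± 0.21, adjusted p = 0.0232).

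Between clones without LIF and Dox, where Nanog was lower in C2, the 10 regulators called by edgeR were all higher in C2, with 8.21% of all genes called higher. DESeq2 called 3060 of all 16210 genes in either direction. Among the regulators it called 10 higher and 1 lower, Smad3 (edgeR -0.34, adjusted p = 0.0595). Nr5a2, a nuclear receptor gene (1.53 ± 0.23, adjusted p = 0.0001449), Tbx3 (1.21 ± 0.20, adjusted p = 0.0003637), Foxd3 (0.90 ± 0.16, adjusted p = 0.0006385) and Zfp281 (0.79 ± 0.15, adjusted p = 0.000942) had the largest differences. Their direction was opposite to that of Nanog in the same cells. Clone differences in the 22 regulators were not confined to this state. Without LIF with Dox, edgeR called 6 higher and 1 lower in C2 (13.3% of all genes called), and DESeq2 (2692 of all 16210 genes called) again called Nr5a2, Tbx3, Foxd3 and Zfp281. With LIF, edgeR called 3 higher and 2 lower without Dox (30.3% of all genes), and 2 higher and 1 lower with it (12.7%).

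A list of 19 genes for proteins that bind NANOG, among them subunits of the NuRD deacetylase complex, was described in the same way. LIF withdrawal without Dox gave 9 of 19 called in Nanog SunTag cells, with 41.5% over all genes, and 13 of 19 in Nanog/Otx2 cells, with 49.8%. It lowered Zfp42, a pluripotency marker (-4.06 ± 0.22, adjusted p = 6.788e-07), Nr0b1, a nuclear receptor gene (-3.56 ± 0.40, adjusted p = 5.397e-05), and Tet2, a methylcytosine dioxygenase gene (-3.09 ± 0.33, adjusted p = 4.029e-05), in Nanog SunTag cells, and raised 6 of the 19, led by the NuRD genes Gatad2b and Chd4 (1.48 and 1.11). Zfp42, Nr0b1 and Tet2 were also lower in Nanog/Otx2 cells, by log2 differences of -4.32, -4.03 and -3.83, Chd4 was higher (0.85), and Gatad2b was not called (0.16, adjusted p = 0.2009). Dox without LIF raised Zfp42, Tet2 and Nr0b1 (3.11, 2.93 and 2.49, adjusted p = 3.401e-05, 0.0005548 and 0.003729), the 3 of 19 that were called, with 5.14% over all genes. In Nanog/Otx2 cells 5 of 19 were called, with 17.3% over all genes: these genes rose by 2.74, 2.42 and 2.20, and Zscan10 and Mta2 fell by 0.32 and 0.24. With LIF, Dox lowered 9 of the 19 in Nanog/Otx2 cells, led by Nr0b1 (-1.16 ± 0.27, adjusted p = 0.007348) and Tet1 (-0.68 ± 0.13, adjusted p = 0.002222). Over all genes 22.9% were called in either direction, and the share called lower was not counted.

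Likeness to Nanog was measured as the Pearson correlation of log2 condition means over the 12 conditions, for 12845 genes whose mean reached 100 normalised counts in 1 or more of them. The values are descriptions without a test, since conditions share clones, states and library names. Cbln1, which encodes a secreted synaptic organiser, stood first (r = 0.956), and it was also first by rank correlation (0.965) and without the log (0.982). Its mean ran from 13.1 normalised counts in long-term 44iN through 71.5 in Tg2a to 502.6 in Nanog SunTag cells with LIF and Dox. Fam183b (0.938), 1500010J02Rik (0.936), Hr (0.929) and Lrrn2 (0.920) followed, of 20 genes with an r of at least 0.9. Like Cbln1, the genes Fam183b, Hr and Lrrn2 reached 100 only in SunTag conditions. Their condition means ran from 8.136 to 216.0, 13.11 to 192.5 and 3.721 to 165.8, so their correlations rest partly on low counts. The most opposite genes were Blmh (-0.952), Abcc4 (-0.945), Slc35b4 (-0.930), Nsun2 (-0.925) and Mmd2 (-0.917), of 15 with an r of at most -0.9. Mmd2 reached 100 only in long-term 44iN cells (155.3 ± 71.25), where Nanog was lowest, and elsewhere lay between 5.092 and 64.37. The filter thus kept Mmd2 through the condition that sets it opposite to Nanog.

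Over the 8 SunTag conditions, where 12446 genes were compared, Cbln1 again had the highest correlation (0.986). Coro2b (0.979), Pla2g4e (0.977), Itga9 (0.973) and She (0.973) came next, of 82 genes with an r of at least 0.9. The lowest values were those of Dnajc11 (-0.968), Rian (-0.966), Slc27a2 (-0.949), 2810453I06Rik (-0.937) and Rsc1a1 (-0.936), of 22 genes with an r of at most -0.9. The libraries of 2810453I06Rik with Dox spread widely: 547.0 ± 488.7 with LIF and 568.7 ± 388.5 without in Nanog SunTag cells, and 612.0 ± 324.4 and 656.4 ± 352.5 in Nanog/Otx2 cells. The condition means of Dnajc11 ran only from 3416 to 4790 and those of Rsc1a1 from 873 to 1205. The choice of measure changed the lists. By rank correlation over the SunTag conditions Cbln1 stood at rank 16 (0.952) and She at rank 1. Of the 5 genes highest over the 12 conditions, 1 was among the 5 highest by rank correlation and 1 without the log, and of the 5 lowest 0 were shared under either measure. Over the SunTag conditions 1 and 4 of the 5 highest were shared, and 1 and 0 of the 5 lowest.

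**Figure D5:**
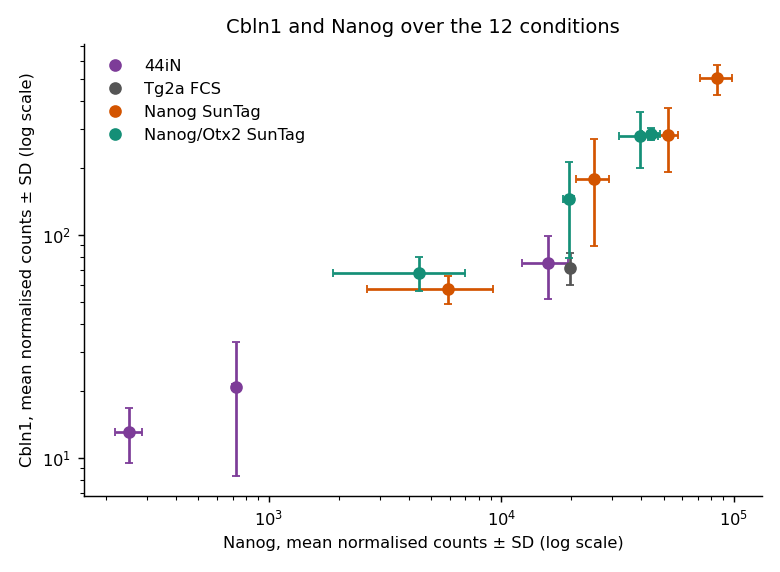
Mean level of Cbln1 against that of Nanog in the 12 conditions (normalised counts, log axes), with 1 point per condition. Cbln1 lies between 13.1 and 20.8 in 44iN cells without Dox, at 71.5 in Tg2a and at 502.6 in Nanog SunTag cells with LIF and Dox.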

How the data were processed

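RNA-seq was measured in 35 libraries (stranded poly(A) libraries, 65-base single reads). Per the labels and the study's methods, the authors demultiplexed reads with CASAVA 1.8, aligned them to mm9 with STAR and deposited expected counts per gene estimated by RSEM. They also deposited the signal used here as level, the same counts divided by DESeq2 size factors over all libraries. STAR, RSEM and DESeq2 versions are not given in the sources used here, and 0 sample columns went unused. Columns were matched by library code, since 4 replicate numbers in column names differ from the titles and 2 libraries have titles with the same number.

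Expected counts were rounded and fitted in R 4.3.3 with edgeR 4.0.16 (TMM, quasi-likelihood test) keeping a gene if some condition of the fit had it at 10 or more normalised counts throughout its libraries. p-values were adjusted by Benjamini-Hochberg over all genes tested and called under 0.05. Folds are log2 with standard errors from the F statistic, and levels are mean ± SD. The first comparison of each planned fit, except that of all 35 libraries, was tested on simulated data with 200 changed genes. The clone by state and Dox by guide fits were not. Alternatives were DESeq2 1.42.0 without independent filtering, its size factors, filters, blocks, smaller or larger fits, left-out libraries, and ratios on CPM or Tbp. Clone by state and Dox by guide were added after the data were seen. Sequences were read with Python 3.11.15 from mm9 and RefSeq and compared with blastn 2.17.0.

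Nanog and the gene lists were chosen with earlier results of these data known. Named were Nanog, its neighbours within 250 kb, Tbp, up to 4 called list members in each direction, and the 5 genes most and least like Nanog. Clones pair libraries because they are the same line. Deviations from condition means over genes correlated with a median r of 0.14 (same clone) and -0.14 (different clone) in Nanog SunTag cells, and of 0.23 and -0.23 in Nanog/Otx2 SunTag cells. Replicate libraries differed by more than counting error everywhere (chi-square per degree of freedom at least 9.15), so none was counted as a duplicate. Tg2a cells in 2i, chromatin data and binding data were not analysed here.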

Additional observations from a re-analysis of the deposited data

Results flagged for a closer look

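Of 7 differences between effects that were tested, 3 passed an adjusted p of 0.05 in edgeR. The effect of Dox on Nanog was larger without LIF than with it in Nanog/Otx2 SunTag cells, by a log2 difference of 2.00 (adjusted p = 0.01043). The difference between clones, C2 against C1, was more negative without LIF than with LIF in cells without Dox, by -1.42 (adjusted p = 4.077e-05), and became less negative under Dox in cells without LIF, by 1.27 (adjusted p = 0.0003909). In each SunTag library of C2 origin without LIF and Dox Nanog lay below every library of C1 origin in that state. The share of all genes separated by clone in this way was not counted. Of the conditions, 3 had 4 libraries, and in none of these did a single library stand apart from the others.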

How the results depend on the processing

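Of 188 alternatives that left out no library, 163 kept the direction and the side of the threshold or moved by less than the spread, 14 brought a difference past it, 9 moved a value and 2 changed its sign (Dox by guide). The ratio to Tbp also changed the sign of Nanog/Otx2 against Nanog SunTag cells in 3 of 4 states. Since those differences were not called, these changes are counted above as moved or as within the spread. Tbp itself was lower in Nanog/Otx2 cells in all 4 states. Why Tbp was lower was not tested. DESeq2 called Nanog for Dox in Nanog SunTag cells with LIF (1.74), for Dox in 44iN (4.54) and for Nanog/Otx2 against Nanog SunTag cells with LIF and Dox (-0.97), and turned Dox by guide without LIF to 0.039, as did its size factors in edgeR (0.038). Without a filter Dox was called in Nanog SunTag cells with LIF (1.74, 84 genes called) and in 44iN (4.57, 434 genes), where edgeR with the filter called 0. The 2 conditions alone gave calls for LIF withdrawal with Dox in Nanog SunTag cells (-0.67) and for Nanog/Otx2 against Nanog SunTag cells with Dox without LIF (-0.43) and with LIF (-0.98). Each clone with its own level in each state gave calls for LIF withdrawal with Dox (-0.72) and the interaction (1.94) in Nanog SunTag cells.

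With the clone as a replicate block, LIF withdrawal with Dox (-0.79) and the interaction (1.64) in Nanog SunTag cells were called, as was Nanog/Otx2 against Nanog SunTag cells with LIF and Dox (-0.93). The block on clone changed no other call. In 44iN, libraries share only a number. Deviations of the 2 same-numbered pairs correlated at 0.49, and with the number as a replicate block Dox gave 4.53, with Nanog called (adjusted p = 5.62e-69 against 0.09021) and 1912 genes called against 0, on 1 residual degree of freedom.

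CPM gave 1.23 for 24 h against long-term 44iN, 1.34 for Dox with LIF in Nanog/Otx2 cells and -0.77 for Nanog/Otx2 against Nanog SunTag cells with LIF and Dox. The ratio to Tbp gave 2.29 for Dox with LIF and -1.22 for LIF withdrawal with Dox in Nanog SunTag cells, 1.06 for 24 h against long-term 44iN, 1.58 for Dox with LIF in Nanog/Otx2 cells, and 0.32, 0.063 and 0.034 for Nanog/Otx2 against Nanog SunTag cells with Dox without LIF, without both, and with LIF without Dox. 

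Counts of genes called differed over 1.5 times between edgeR and DESeq2 for Dox with LIF in Nanog SunTag cells (0 and 163), Dox in 44iN (0 and 141), long-term 44iN against Tg2a (1286 and 2294), 44iN with Dox against Tg2a (723 and 1568), 24 h against long-term 44iN (1339 and 2555), and Dox without LIF (803 and 1509) and the interaction (302 and 877) in Nanog SunTag cells. For the added fits they were 2 and 64 (clone by LIF with Dox), 3 and 37 (clone by Dox), 6 and 54 and 5 and 41 (Dox by guide with and without LIF). With the clone block they were 1375 and 709 for that Dox effect and interaction, and 4690, 2887 and 5831 against 2702, 1514 and 3577 for Dox without LIF, the interaction and Dox with LIF in Nanog/Otx2 cells.

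Leaving out 1 library at a time, the log2 value of Nanog ranged from 1.59 to 1.91 for Dox with LIF in Nanog SunTag cells, 4.26 to 4.77 for Dox in 44iN, -6.53 to -6.28 for long-term 44iN against Tg2a, -0.65 to -0.19 for 44iN with Dox against Tg2a and 1.34 to 1.61 for 24 h against long-term. In Nanog SunTag cells LIF withdrawal ranged from -2.43 to -1.69 without Dox and from -0.79 to -0.51 with it, Dox without LIF from 2.78 to 3.52 and the interaction from 1.02 to 1.76. In Nanog/Otx2 cells these were -2.47 to -1.93, -0.28 to -0.08, 2.95 to 3.49 and 1.76 to 2.30, and Dox with LIF 1.15 to 1.24. Nanog/Otx2 against Nanog SunTag cells ranged from -0.57 to -0.37 (Dox without LIF), -1.07 to -0.78 (LIF and Dox), -0.84 to -0.10 (neither) and -0.44 to -0.23 (LIF). C2 against C1 ranged from -0.39 to -0.043 (LIF), -0.25 to -0.19 (LIF and Dox), -1.76 to -1.53 (neither) and -0.43 to -0.31 (Dox without LIF), clone by LIF from -1.59 to -1.24 without Dox and -0.21 to -0.09 with it, and clone by Dox from 1.17 to 1.39. Dox by guide ranged from -0.71 to -0.41 with LIF and from -0.30 to 0.38 without. Of the 11 neighbouring steps in the order of conditions, 2 to 4 were called.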
